A study of Rattus norvegicus with 54 samples.

Results

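Tendons join muscle to bone, and a hind limb muscle taken whole carries their ends, sheaths and connective tissue with it. Tendon cells arise from limb progenitors that switch on *Scx*, encoding the basic helix-loop-helix factor scleraxis. As they mature they make *Tnmd*, encoding the membrane glycoprotein tenomodulin, and coat their collagen fibrils with small leucine-rich proteoglycans such as fibromodulin, the product of *Fmod*. *Chad* encodes chondroadherin, a leucine-rich repeat protein of the cartilage matrix that also occurs in tendon. The homeobox factor *Mkx* and the matrix thrombospondin *Thbs4* complete a list of 6 tendon genes. A gene was taken as measured where a probe set carried its symbol alone in the platform annotation, and 4 of the 6 were, with 1 probe set each, among 14506 genes so named. *Mkx* and *Thbs4* were not analysed here.

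The tissue was skeletal muscle of the hind limb of Wistar rats, and its total RNA was read on Rat Gene 1.0 ST microarrays, whose probes lie along the exons of each transcript. Of the 54 arrays of the study 30 were from muscle, 5 each at foetal days 16, 18, 20 and 22 (F16, F18, F20 and F22) and at postnatal days 1 and 4 (P1 and P4). The other 24 were from liver, 4 each at F16, F20, F22, P1, P4 and adult day 90 (P90). The paper left the F18 muscle and adult liver arrays out of its own array analyses and drew no conclusions from them. No animal was treated, all foetuses were delivered by Caesarean section, and the tissues were snap-frozen. The samples of a group are labelled as biological replicates. Neither the muscle dissected nor the litters are stated, and animals of 1 litter would make the p-values too small. Signals are log2 values after robust multi-array averaging (RMA), so that a difference of 1 is a doubling. In tissue RNA, fewer cells of a type and less RNA per cell cannot be told apart.

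The mean of 7 measured muscle fibre markers ranged from 10.28 to 11.15 over the arrays of F16 and from 12.94 to 13.15 at P4. All 7 rose from F16 to P4, among them *Ckm*, the muscle creatine kinase, from 9.07 to 13.46. Markers of other tissues of the limb were present in the same arrays. From F16 to P4, 26.7% of all probe sets rose and 35% fell. In that interval 0 of 13 cartilage markers rose and 9 fell. Of the bone markers 7 of 9 rose and 2 fell, and of the fibroblast markers 7 of 11 rose and 2 fell. All 5 keratinocyte, 6 adipocyte and 5 erythroid markers rose, as did 6 of 8 endothelial and 4 of 5 Schwann cell markers. Of the muscle precursor markers 1 of 4 rose and 2 fell. Medians of the arrays lay between 7.98 and 8.07, and no pair of arrays was identical. An earlier analysis of these data had set 4 arrays apart (F16 replicate 5, F20 replicates 4 and 5, and F22 replicate 5), and values without them are given beside the calls that their removal changed.

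The promoters of the members are shown because *Tnmd* and *Fmod* moved together in time and *Chad* did not. Whether their sequences bear on these courses was not tested. RefSeq windows (assembly GRCr8) hold 250 bases before and 50 after the start of a gene, and were given for 3 of the 4 measured members, all but *Scx*. Capitals mark the E-box CANNTG, which basic helix-loop-helix factors such as scleraxis bind, the TATA sequence TATAAA and the Smad-type sequence CAGAC, each searched on both strands, and positions count from the start of the gene.
*Tnmd* promoter, chrX:101350182-101350481, + strand: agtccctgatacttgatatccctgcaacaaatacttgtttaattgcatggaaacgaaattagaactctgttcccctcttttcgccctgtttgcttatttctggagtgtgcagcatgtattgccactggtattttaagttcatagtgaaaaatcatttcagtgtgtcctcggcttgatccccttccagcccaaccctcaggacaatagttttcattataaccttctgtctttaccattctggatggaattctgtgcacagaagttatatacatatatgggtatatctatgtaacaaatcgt
*Fmod* promoter, chr13:48045317-48045616, + strand: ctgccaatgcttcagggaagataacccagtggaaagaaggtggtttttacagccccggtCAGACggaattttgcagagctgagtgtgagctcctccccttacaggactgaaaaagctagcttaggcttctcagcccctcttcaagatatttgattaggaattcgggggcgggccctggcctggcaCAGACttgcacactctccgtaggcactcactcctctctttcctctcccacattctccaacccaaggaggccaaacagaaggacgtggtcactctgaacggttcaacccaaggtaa
*Chad* promoter, chr10:80008795-80009094, + strand: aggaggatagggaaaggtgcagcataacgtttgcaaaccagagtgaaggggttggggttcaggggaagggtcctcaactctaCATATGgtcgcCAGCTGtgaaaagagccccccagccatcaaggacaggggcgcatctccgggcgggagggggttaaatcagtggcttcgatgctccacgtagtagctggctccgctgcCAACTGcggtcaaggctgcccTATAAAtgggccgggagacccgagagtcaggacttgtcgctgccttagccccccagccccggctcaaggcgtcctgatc

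The *Tnmd* window held no match to the E-box, to TATAAA or to CAGAC. The *Fmod* window held CAGAC at -191 and -65 and neither of the other sequences. The *Chad* window held 3 E-boxes, CATATG at -168, CAGCTG at -157 and CAACTG at -50, and TATAAA at -29. Of 33469 windows of this length, 72.1% held an E-box, 14.2% TATAAA and 50.1% CAGAC. The E-box CAGATG was in none of the 3 windows and in 16.6% of all, and GCGNGGGCG, which Egr factors bind, was in none of the 3 and in 4.98% of all. None of the matches overlapped another.

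*Tnmd* and *Fmod*, the genes of the maturing tendon cell and its matrix, rose steeply before birth and then stayed high. That course was not theirs alone. The mean of the keratinocyte markers was 9.21 at F16, 12.13 at F22 and 11.63 at P4, and that of the muscle fibre markers 10.79, 13.16 and 13.05. The mean of the cartilage markers went down, with 9.25, 8.89 and 8.44. *Scx*, the gene of the early tendon factor, started at its highest level and fell, while *Chad* rose from P1 to P4. In that interval 8 of 9 bone markers rose as well (median 0.82) and 0 of 13 cartilage markers did, against 19.2% of all probe sets. The mean of the bone markers was 9.40 at F22, 8.92 at P1 and 9.95 at P4. Over the 6 time points the level of 4 of the 4 members changed in the moderated F-test of limma, where 75% of all 15310 probe sets did. The F-test gave an adjusted p of 2.21e-15 for *Fmod*, 1.63e-12 for *Tnmd*, 7.35e-08 for *Scx* and 0.0017 for *Chad*. The F statistics of *Fmod* and *Tnmd* lay at the percentiles 97 and 90.7 of all probe sets and that of *Chad* at 37.2.

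**Figure D1:**
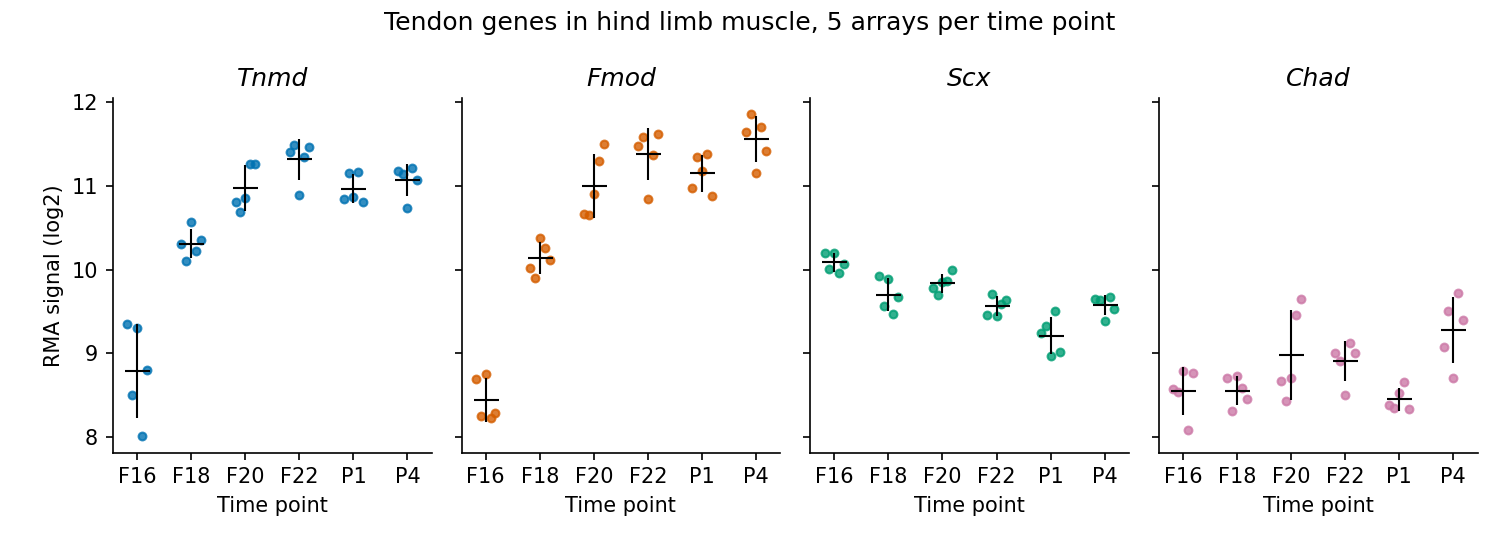
RMA signal (log2) of *Tnmd*, *Fmod*, *Scx* and *Chad* in hind limb muscle. Each point is 1 of 5 arrays of a time point, the horizontal bar is their mean and the vertical bar its SD. *Tnmd* and *Fmod* climb from means of 8.79 and 8.44 at F16 to 11.32 and 11.38 at F22, *Scx* descends from 10.09 to 9.21 at P1, and *Chad* lies between 8.08 and 9.72.

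At F16 the arrays of *Tnmd* read 9.36, 8.50, 9.30, 8.01 and 8.80 in replicates 1 to 5 (mean 8.79 ± 0.57, SD, n = 5). At F18 they read 10.30, 10.10, 10.57, 10.22 and 10.36 (10.31 ± 0.17). The F16 arrays were the most scattered of its time points, and every F18 array lay above all of them. At F20 the values were 10.81, 10.69, 10.86, 11.27 and 11.26 (10.98 ± 0.27). At F22 they were 11.41, 11.49, 10.90, 11.35 and 11.47 (11.32 ± 0.24). Every F20 array lay above every F18 array, whereas F22 overlapped F20 through replicate 3. After birth the values were 10.85, 11.15, 10.87, 11.17 and 10.81 at P1 (10.97 ± 0.17). At P4 they were 11.19, 11.15, 10.74, 11.21 and 11.08 (11.07 ± 0.19). Signals after birth thus lay within the range of F20 and F22.

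From F16 to F18 *Tnmd* rose by 1.52 on the log2 scale (SE 0.18, adjusted p = 1.82e-07), or 2.87-fold. From F18 to F20 it rose by a further 0.67 (SE 0.18, adjusted p = 0.00514). Between F20 and F22 the difference was 0.35 (adjusted p = 0.186, and 0.46 with 0.0169 under array weights), between F22 and P1 -0.35 (0.193) and between P1 and P4 0.10 (0.716). From F16 to P4 *Tnmd* rose by 2.28 (95% interval 1.91 to 2.65, adjusted p = 4.64e-12), or 4.86-fold. In the order F22, P4, F20, P1, F18, F16 of its means, the neighbours among the 4 highest time points did not pass the test, while P1 differed from F18 by 0.66 (adjusted p = 0.00273) in a contrast in which 21% of all probe sets rose. Without the 4 arrays set apart the rise from F18 to F20 was 0.47 (adjusted p = 0.113) and no longer passed.

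*Fmod*, whose product binds collagen and shapes its fibrils, followed a like course. At F16 its arrays read 8.70, 8.25, 8.75, 8.22 and 8.29 (8.44 ± 0.26). At F18 they read 10.03, 9.90, 10.39, 10.26 and 10.12 (10.14 ± 0.19). No F18 array came within 1 log2 unit of an F16 array. At F20 the values were 10.66, 10.66, 10.90, 11.30 and 11.50 (11.00 ± 0.38). At F22 they were 11.48, 11.59, 10.85, 11.38 and 11.62 (11.38 ± 0.31). Replicates 4 and 5 were the highest of F20 and replicate 3 was the lowest of F22, as for *Tnmd*. After birth the values were 10.98, 11.35, 11.18, 11.38 and 10.88 at P1 (11.15 ± 0.22). At P4 they were 11.65, 11.86, 11.15, 11.71 and 11.42 (11.56 ± 0.28).

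*Fmod* rose by 1.70 from F16 to F18 (SE 0.17, adjusted p = 7.48e-09), or 3.24-fold, and by 0.87 from F18 to F20 (SE 0.17, adjusted p = 0.000206). The differences of 0.38 from F20 to F22 (adjusted p = 0.114), -0.23 from F22 to P1 (0.407) and 0.41 from P1 to P4 (0.0607) did not pass. The step from F20 to F22 passed without F20 replicate 5 (0.50, adjusted p = 0.0353), without F22 replicate 3 (0.51, 0.0302), without the 4 arrays set apart (0.58, 0.0218) and with array weights (0.51, 0.00503). The step from P1 to P4 passed when F20 replicate 5, F22 replicate 3, P1 replicate 4 or P4 replicate 3 was left out (adjusted p = 0.0211 to 0.0481), without the 4 arrays set apart (0.0302) and among bright probe sets alone (0.0456). Its mean was highest at P4, 3.12 above F16 (95% interval 2.78 to 3.46, adjusted p = 1.18e-15), a fold of 8.69. In the order P4, F22, P1, F20, F18, F16 the neighbours above F18 did not pass the test, and the steps from F20 down to F18 and from F18 down to F16 did. P4 still stood above F20 by 0.56 (adjusted p = 0.0069), with overlapping arrays, in a contrast in which 3394 of 15310 probe sets rose.

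*Scx* went the other way. At F16 its arrays read 10.20, 10.01, 10.21, 9.96 and 10.07 (10.09 ± 0.11). At F18 they read 9.92, 9.57, 9.89, 9.47 and 9.67 (9.70 ± 0.20). All F16 arrays lay above all F18 arrays. At F20 the values were 9.78, 9.69, 9.85, 9.87 and 9.99 (9.84 ± 0.11). At F22 they were 9.45, 9.71, 9.44, 9.59 and 9.64 (9.57 ± 0.12). The ranges of F18, F20 and F22 overlapped. At P1 the values were 9.25, 9.33, 8.96, 9.51 and 9.01 (9.21 ± 0.23). At P4 they were 9.65, 9.64, 9.39, 9.67 and 9.53 (9.58 ± 0.12). P1 held the lowest array of the series, and its replicate 4 alone overlapped P4.

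*Scx* fell by 0.38 from F16 to F18 (SE 0.09, adjusted p = 0.00203), by 0.27 from F20 to F22 (0.0415) and by 0.35 across birth, F22 to P1 (0.00752). It then rose by 0.36 from P1 to P4 (adjusted p = 0.00319). From F18 to F20 it differed by 0.13 (adjusted p = 0.312). From F16 to P4 it fell by 0.51 (95% interval -0.70 to -0.32, adjusted p = 2.21e-05), a level 1.43-fold lower. In the order F16, F20, F18, P4, F22, P1, F16 stood above F20 by 0.25 (adjusted p = 0.0278) in a contrast in which 28.1% of all probe sets fell, and F22 above P1. The neighbours between F20 and F22 in that order did not pass. The fall from F20 to F22 was lost under several other settings, among them centring of the arrays on their medians (adjusted p = 0.0717) and leaving out the 4 arrays set apart (0.203). It was also lost when replicate 3, 4 or 5 of F20 or replicate 1, 3 or 4 of F22 was left out (adjusted p = 0.0608 to 0.11).

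*Chad* showed no prenatal change that passed the test. At F16 its arrays read 8.58, 8.54, 8.79, 8.08 and 8.76 (8.55 ± 0.29). At F18 they read 8.70, 8.31, 8.73, 8.58 and 8.46 (8.56 ± 0.18). The means of F16 and F18 differed by 0.01 (95% interval -0.39 to 0.40, adjusted p = 0.987). At F20 the values were 8.67, 8.43, 8.70, 9.46 and 9.65 (8.98 ± 0.54). At F22 they were 9.01, 8.91, 8.50, 9.12 and 9.00 (8.91 ± 0.24). The F20 arrays divided into replicates 1 to 3 near the F18 level and replicates 4 and 5 above every earlier array. At P1 the values were 8.39, 8.34, 8.53, 8.65 and 8.34 (8.45 ± 0.14). At P4 they were 9.08, 9.50, 8.70, 9.72 and 9.40 (9.28 ± 0.40). Every P4 array lay above every P1 array.

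The rise of *Chad* from P1 to P4 was 0.83 (SE 0.19, adjusted p = 0.00123), or 1.78-fold, and lay at the percentile 98.7 of all changes in that interval. From F18 to F20 it differed by 0.43 (adjusted p = 0.0942), from F20 to F22 by -0.08 (0.825) and from F22 to P1 by -0.46 (0.104). From F16 to P4 it rose by 0.73 (95% interval 0.34 to 1.12, adjusted p = 0.00153), with overlapping arrays. In the order P4, F20, F22, F18, F16, P1 of its means no pair of neighbours passed the test. The difference from F18 to F20 passed without F20 replicate 2 (0.57, adjusted p = 0.0254) and in 1 fit of all 54 arrays (0.43, 0.0309). It was 0.31 without F20 replicate 4 (adjusted p = 0.277), 0.26 without F20 replicate 5 (0.34), 0.14 with array weights (0.532) and 0.05 without the 4 arrays set apart (0.89). Across birth *Chad* fell by 0.53 from F20 to P1 (SE 0.19, adjusted p = 0.0279), with overlapping arrays, in a contrast in which 23.4% of all probe sets fell. That call was lost without the 4 arrays set apart (-0.15, adjusted p = 0.54), with array weights (-0.24, 0.232), and without F20 replicate 4 (-0.41, 0.0995) or 5 (-0.37, 0.126). It was also lost without P1 replicate 1, 2 or 5 (adjusted p = 0.0508 to 0.058).

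**Figure D2:**
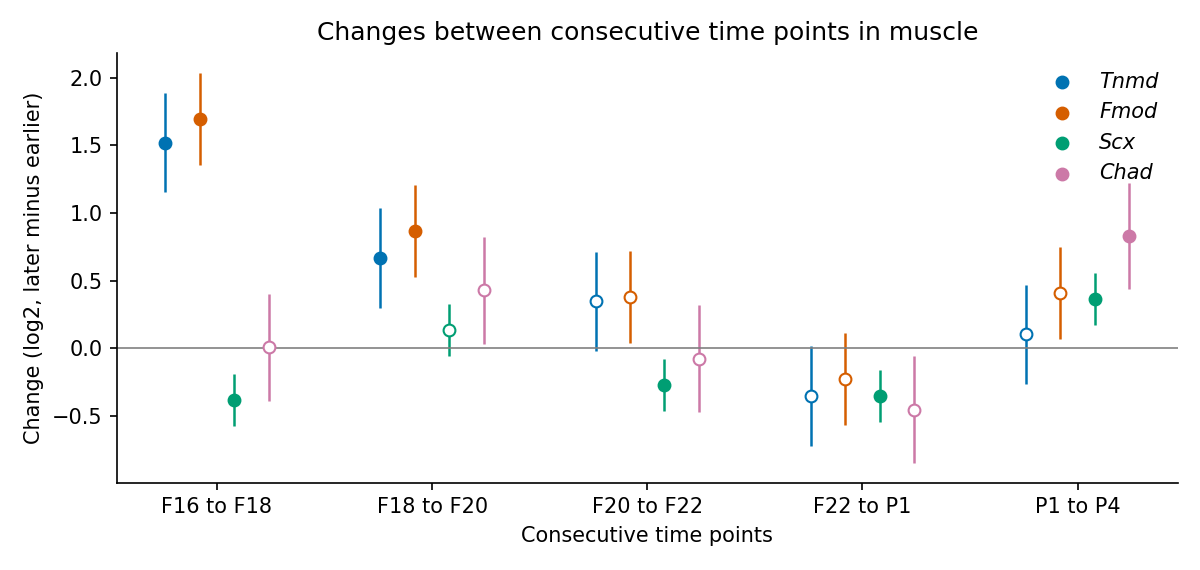
Changes on the log2 scale, later minus earlier, of the 4 members between consecutive time points in muscle, with 95% intervals of the limma fit. Filled points passed an adjusted p of 0.05. *Tnmd* and *Fmod* are filled in the first and second interval, at 1.52 and 1.70 and at 0.67 and 0.87, and *Chad* is filled from P1 to P4 alone, at 0.83.

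Counted over the members, 2 of 4 rose and 1 fell from F16 to F18, where 14.1% of all probe sets rose and 19.3% fell. From F18 to F20, 2 rose against 14.6% of all. From F20 to F22 and from F22 to P1 the only member called was *Scx*, which fell against 13.8% and 8.82% of all. From P1 to P4, 2 rose against 19.2% of all. From F16 to P4, 3 rose and 1 fell, against 26.7% and 35% of all. The members changed by different amounts from F16 to P4. In exact 2-sided permutation tests of the difference of a pair within each array, 5 F16 arrays against 5 P4 arrays, all 6 pairs gave an adjusted p of 0.0079, the smallest that this design allows. The changes given above already lay apart, and the share of all gene pairs that would pass was not computed. The closest pair was *Tnmd* and *Fmod*, with a difference of -0.84 (*Tnmd* minus *Fmod*, SE 0.17), and the farthest was *Scx* and *Fmod*, with -3.63 (*Scx* minus *Fmod*, SE 0.10).

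Although *Scx* fell while *Tnmd* and *Fmod* rose over time, arrays of 1 time point that were high for *Scx* were high for the others too. This was measured as the deviation of each array from the mean of its time point, over 30 arrays, with 2-sided permutation within time points and adjustment over 6 pairs. *Tnmd* and *Fmod* had r = 0.815 and rho = 0.918 (adjusted permutation p = 3e-05 for each, raw p = 1e-05, the smallest that the permutations can give). *Tnmd* and *Scx* had r = 0.663 and rho = 0.765 with the same p-values. *Fmod* and *Chad* had r = 0.772 and rho = 0.755 (adjusted permutation p = 0.000135 and 0.00015, raw p = 9e-05 and 0.0001). The correlation was positive within each of the 6 time points for every pair.

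*Tnmd* and *Chad* had r = 0.703 and rho = 0.723 (adjusted permutation p = 0.000135 and 0.000168, raw p = 7e-05 and 0.00014). *Scx* and *Fmod* had r = 0.624 and rho = 0.681 (adjusted permutation p = 0.00024 and 0.00015, raw p = 0.0002 and 8e-05). *Scx* and *Chad* had the lowest value, with r = 0.53 and rho = 0.56 (adjusted permutation p = 0.00027 and 0.00079, raw p = 0.00027 and 0.00079). Without the 2 arrays farthest out for the first gene of a pair, r became 0.906, 0.704, 0.681, 0.741, 0.668 and 0.583 in the order given here. Without the 4 arrays set apart it became 0.807, 0.64, 0.713, 0.68, 0.6 and 0.522. Of all genes, 0.0965% deviated with *Tnmd* at least as closely as *Fmod* did, and 0.0414% with *Fmod* at least as closely as *Tnmd* did. For *Tnmd* and *Scx* the share was 1.15% with *Tnmd* and 0.0552% with *Scx*. Over both sides of the 6 pairs it ranged from 0.0414% to 4.74%, the highest being the genes at least as close to *Chad* as *Scx* was. The median r of all genes with a member lay between -0.002 and 0.015.

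**Figure D3:**
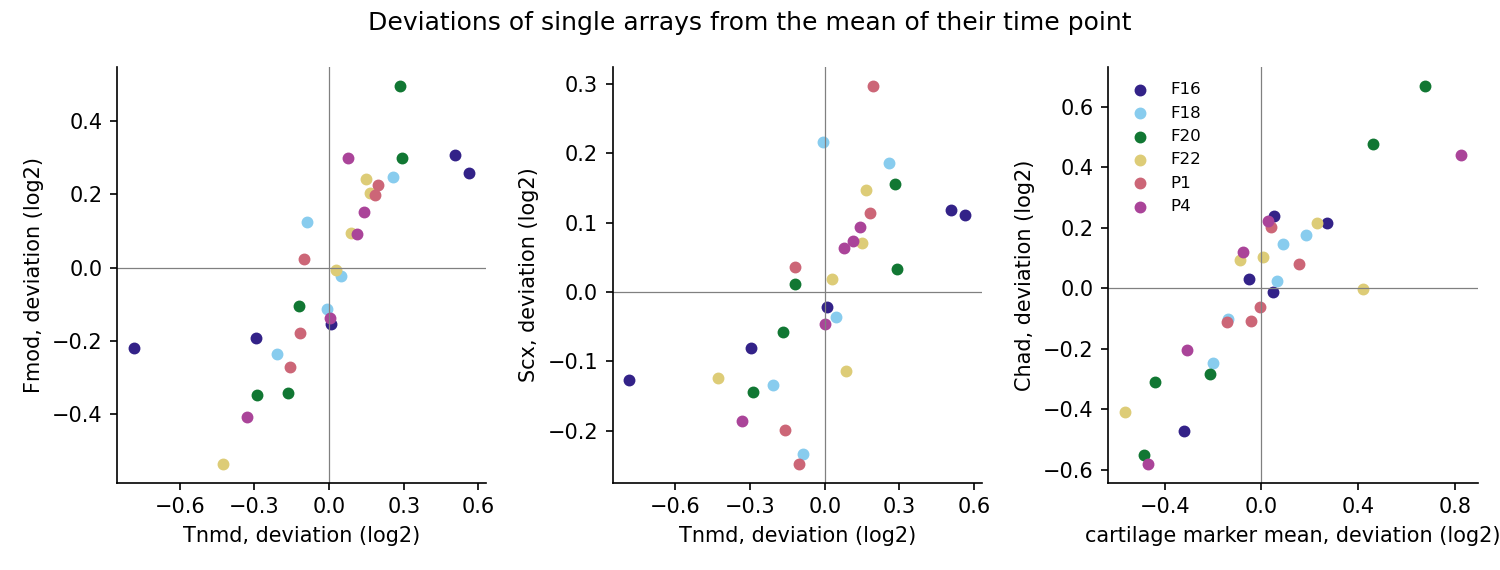
Deviation of each of the 30 muscle arrays from the mean of its time point, on the log2 scale, for *Fmod* against *Tnmd*, *Scx* against *Tnmd*, and *Chad* against the mean of 13 cartilage markers. Colours are time points, and r is 0.815, 0.663 and 0.89 in the panels from left to right.

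The marker means of some other cell types moved with these deviations. The mean of the 13 measured cartilage markers ranged from 8.93 to 9.52 over the arrays of F16, from 8.94 to 9.32 at F18, from 8.78 to 9.94 at F20, from 8.33 to 9.31 at F22, from 8.40 to 8.70 at P1 and from 7.97 to 9.27 at P4. The highest F20 arrays were replicates 4 and 5, at 9.73 and 9.94, the arrays in which *Chad* was high. *Chad* deviated with this mean at r = 0.89 and rho = 0.86 (adjusted permutation p = 0.0004 for each, raw p = 1e-05, over 40 relations of 4 members with 10 marker lists), and at 0.847 without the 2 farthest arrays. The genes closest to *Chad* in these deviations were *Acan* (0.909), *Loxl3* (0.872), *Epyc* (0.868), *Cnmd* (0.862) and *Hapln1* (0.856), of which aggrecan, epiphycan, chondromodulin and the link protein are cartilage matrix genes. *Acan*, *Epyc*, *Cnmd* and *Hapln1* are themselves among the 13 cartilage markers, so they add nothing separate to the r of the mean. *Fmod*, *Tnmd* and *Scx* deviated with the cartilage mean at r = 0.686, 0.553 and 0.448 (rho 0.641, 0.598 and 0.473), with an adjusted permutation p of 0.00712, 0.00712 and 0.0191 (raw 0.00083, 0.00089 and 0.00287), and without the 2 farthest arrays at 0.533, 0.621 and 0.546.

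With the cartilage mean regressed out of each array, the r of *Tnmd* and *Fmod* was 0.719, of *Tnmd* and *Scx* 0.558, of *Fmod* and *Chad* 0.485 and of *Scx* and *Chad* 0.322. Of the other lists, the 4 muscle precursor markers passed with *Tnmd* (r = 0.707, rho = 0.665, adjusted permutation p = 0.0052 and 0.0146, raw p = 0.00039 and 0.00146, and 0.657 without the 2 farthest arrays). They also passed with *Scx* (r = 0.608, rho = 0.596, adjusted permutation p = 0.0028 and 0.013, raw p = 0.00014 and 0.00065, and 0.671 without the 2 farthest arrays). With their mean regressed out, the r of *Tnmd* and *Fmod* was 0.747, of *Tnmd* and *Scx* 0.416, of *Fmod* and *Chad* 0.69 and of *Scx* and *Chad* 0.319. With *Fmod* they reached r = 0.511 and rho = 0.564 (adjusted permutation p = 0.0529 and 0.0348, raw p = 0.00928 and 0.00649, and 0.497 without the 2 farthest arrays). Bone markers with *Chad* reached r = 0.442 and rho = 0.548 (adjusted permutation p = 0.054 and 0.0327, raw p = 0.0135 and 0.0049, and 0.331 without the 2 farthest arrays), and the other 32 relations did not pass by either measure.

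The genes whose level was most like that of a member over the 30 arrays are given with Pearson's r as a description, since all points share the time course and the normalisation. For *Tnmd* they were *Srpx2* (0.976), *Fmod* (0.973), *Anxa4* (0.968), *Piezo1* (0.962) and *Elmo1* (0.962). For *Fmod* they were *Srpx2* (0.988), *Spon2* (0.983), *Ccn3* (0.979), *Fndc1* (0.976) and *Rgs5* (0.973), and *Tnmd* came at rank 7. *Piezo1* encodes a mechanically gated ion channel and *Ccn3* a secreted matricellular protein. For *Scx* they were *Emg1* (0.905), *Ogg1*, *Cpsf4* and *Oip5* (0.904 each) and *Zfp668* (0.9), none of them a gene of the tendon lists. For *Chad* they were *B4galt6* (0.853), *Mgat2* (0.849), *Kazald1* and *Slc39a13* (0.831 each) and *Yipf3* (0.815). *Tnmd* and *Scx* had an r of -0.52 over the 30 arrays, against 0.663 for their deviations within time points.

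Genes of the surrounding pathway were counted from F16 to P4 by role, with 1 probe set per gene, where 3972 of all 14506 genes rose, 4980 fell and the median change was -0.04. Of 7 transcription factors active in tendon 4 rose and 2 fell (median 0.92). *Klf4* rose by 1.75, *Egr1* by 1.66 and *Egr2* by 1.06, the Egr factors being known for their response to mechanical load, and *Eya2* fell by 1.13. Of 20 signals and receptors 3 rose and 11 fell (median -0.28). Among the ligands *Tgfb1* rose by 1.57 and *Tgfb3* by 0.31 while *Tgfb2* fell by 0.85. The BMP antagonist *Nog* fell by 0.59 and the BMP ligand *Bmp4* by 0.49.

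All 10 measured fibril collagens rose (median 0.97), with *Col1a1* up by 1.77, *Col3a1* and *Col14a1* by 1.57 each and *Col1a2* by 1.49. The list takes in collagens that associate with fibrils, such as *Col14a1*, beside those that form them. Of 18 genes of collagen processing and crosslinking 11 rose and 4 fell (median 0.41). *Adamts2*, which cleaves the procollagen amino end, rose by 1.71, *Pcolce*, which enhances cleavage at the carboxy end, by 1.48, and the lysyl oxidases *Loxl1* and *Loxl4* by 1.34 and 1.28. Of 9 other small leucine-rich proteoglycans, the family of *Fmod*, 8 rose and 1 fell (median 0.68). *Prelp* rose by 1.44, *Bgn* by 1.27 and *Aspn* by 1.26, while the cartilage member *Epyc* fell by 1.88. *Fmod* itself rose by 3.12 over the same interval.

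Of 10 matrix glycoproteins 8 rose and 1 fell (median 1.26), led by the elastic fibre genes *Mfap5* (5.08) and *Eln* (1.99) with *Cilp* (2.09) and *Fbn1* (1.56). *Comp*, a thrombospondin of tendon and cartilage, differed by 0.22 (adjusted p = 0.346). All 8 genes of the myotendinous junction rose (median 0.39), among them the laminin receptor *Itga7* by 2.19, *Dmd* by 1.49, *Ankrd1* by 1.19 and *Vcl* by 0.42. Of 6 genes of the tendon sheath 4 rose and 2 fell (median 0.90), with *Dpt* up by 2.76, *Tppp3* by 2.13 and *Prg4* by 1.56, and *Pdgfra* down by 1.31. Of 13 nearest relatives of the 6 tendon genes 7 rose and 5 fell (median 0.22). *Cnmd*, the cartilage relative of *Tnmd*, fell by 1.84 where *Tnmd* rose by 2.28. Among the Irx homeobox genes, relatives of *Mkx*, *Irx6* fell by 0.82 and *Irx4* rose by 0.77.

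**Figure D4:**
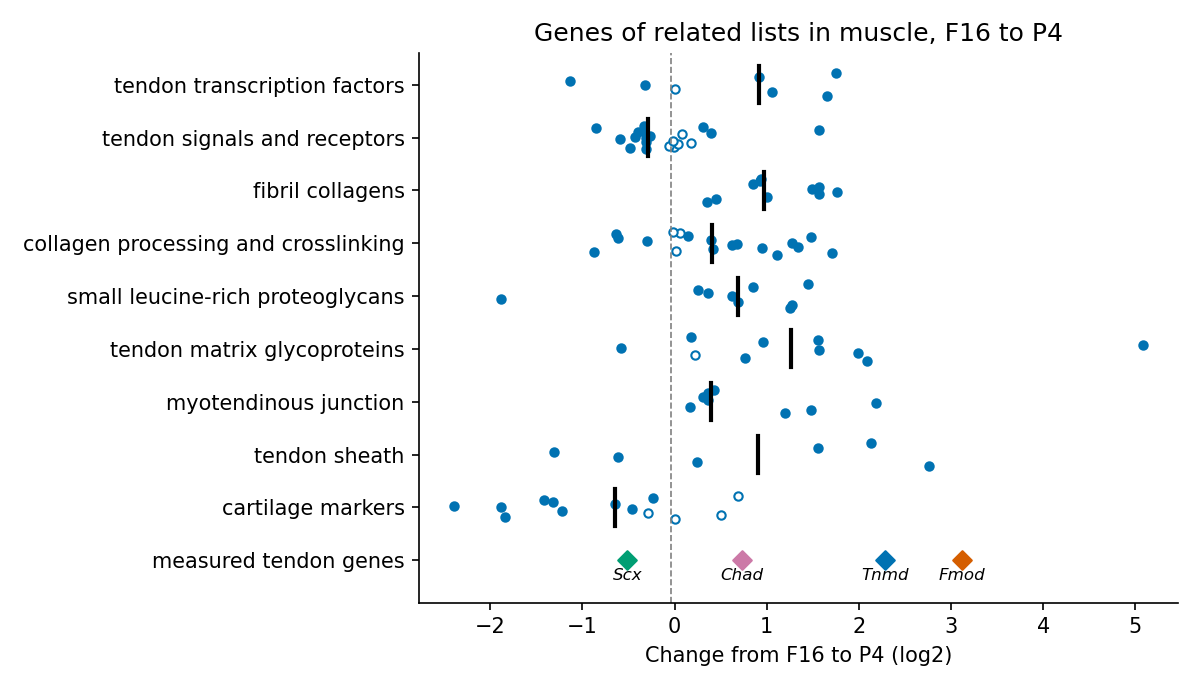
Change from F16 to P4 in muscle on the log2 scale of each measured gene of 9 lists, with the 4 members in the lowest row. Filled points passed an adjusted p of 0.05, short vertical bars are list medians and the dashed line is the median of all genes at -0.04. All 10 fibril collagens lie to the right of the line, and 0 of the 9 filled cartilage markers do.

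Liver gives the background of these probe sets in a tissue with little tendon. Over the 24 liver arrays *Tnmd* lay between 4.66 and 5.30, its mean at the percentile 7.94 of all probe sets there. *Fmod* lay between 6.09 and 7.61, *Scx* between 6.76 and 7.60 and *Chad* between 6.84 and 7.31. Since the distributions of the signals point to tissues normalised apart, levels were not compared between them. Whether the *Tnmd* signal in liver, with means of 5.17 at F16 and 4.88 at P4, lay above background was not tested. From F16 to P4 *Tnmd* fell by 0.29 in liver (adjusted p = 0.0228), and the changes of *Fmod* (-0.39, adjusted p = 0.0702), *Chad* (0.06, 0.484) and *Scx* (-0.01, 0.924) did not pass. Over all liver time points it was the reverse. In the F-test *Scx* (adjusted p = 0.00264), *Fmod* (0.00583) and *Chad* (0.0105) passed and *Tnmd* did not (0.0967). The shares of all probe sets that passed in liver, here and from F16 to P4, were not computed. The change in muscle differed from that in liver for 4 of 4 members, as for 56.3% of all probe sets. The difference was 3.51 for *Fmod* (SE 0.26, adjusted p = 6.4e-15), 2.57 for *Tnmd* (SE 0.24, adjusted p = 5.4e-12), 0.67 for *Chad* (SE 0.25, adjusted p = 0.0195) and -0.50 for *Scx* (SE 0.13, adjusted p = 0.00102). For *Chad* it no longer passed without F16 replicate 4 of muscle (0.55, adjusted p = 0.0526) or without P4 replicate 4 of muscle (0.56, adjusted p = 0.0504).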

How the data were processed

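Expression was measured on 54 GeneChip Rat Gene 1.0 ST arrays of Wistar rats, 30 of hind limb muscle and 24 of liver. The authors deposited log2 values after robust multi-array averaging with Affymetrix Expression Console of a version not given in the sources used here. The sources do not say whether the tissues were normalised together. At equal ranks the signals differed between tissues by a median of 0.762, against a median range of 0.153 within muscle and 0.215 within liver. Each tissue was therefore taken as normalised apart. RMA compresses changes near the background. The small number of arrays, 4 or 5 a group, limits the precision. Of 29214 probe sets 15310 with 1 gene symbol were used, and 323 with several symbols and 13581 without one were left out.

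From these values 1 linear model of the 6 time points of muscle was fitted without covariates (limma 3.58.1 under R 4.3.3), with Benjamini-Hochberg adjustment over all 15310 probe sets and a threshold of 0.05. The methods of the study used an unadjusted p, which was tried as an alternative. The tissue difference was fitted on 45 arrays. On simulated data with the spread of these arrays, 94.9%, 95.8% and 100% of log2 changes of 0.5, 1 and 2 from F16 to P4 were recovered. There the noise was independent for each probe set, and only 59, 71 and 70 of 15310 probe sets were changed. The real arrays have deviations shared by many genes and far more changes, so these shares check the code and do not give the power reached here. Permutation tests (100000 permutations, or all 252 for 5 against 5 arrays), correlations and promoter matches were computed in Python 3.11.15 with numpy 2.4.6 and pandas 2.3.3. Replicate numbers did not pair the muscle arrays of different time points. Whether liver and muscle of the same age came from the same animals is not stated. The fit of the tissue difference treated all its arrays as independent. Where a gene had several probe sets, the brightest was taken for lists and correlations.

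Named genes were the members, the 5 genes with the highest r for each, up to 4 genes of each list with the largest changes past the threshold, and markers of a cell type whose mean moved with a member. *Ckm*, *Tgfb3*, *Comp*, *Irx4* and the 5 genes closest to *Chad* in deviations were picked with their values in view. The members and lists were chosen with earlier results of these data known. Settings varied were the threshold, a limit to bright probe sets, the prior, normalisation, averaging of probe sets, groups in the fit, array weights, the replicate block, and leaving out arrays.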

Additional observations from a re-analysis of the deposited data

Results flagged for a closer look

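Among the 24 groups of 5 muscle arrays of the 4 members, 1 array stood far from the other 4 of its group. *Tnmd* at F22 in replicate 3 read 10.90 against 11.35 to 11.49 in the others, a gap of 0.77 of the whole range, where chance marks about 1 group in 20.

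The change from F16 to P4 differed between muscle and liver in the limma fit for *Fmod* (3.51, adjusted p = 6.4e-15), *Tnmd* (2.57, adjusted p = 5.4e-12), *Chad* (0.67, adjusted p = 0.0195) and *Scx* (-0.50, adjusted p = 0.00102).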

How the results depend on the processing

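The changes from F16 to F18, from F16 to P4 and from P1 to P4, and the F-test, kept their direction and the number of members called within 1.5 times under the alternatives run. No called change of a member turned its sign. Changes of *Chad* that had not passed did, from F16 to F18 (0.01) in 7 alternatives, down to -0.11 without F16 replicate 4, and from F20 to F22 (-0.08) in 5, up to 0.28 without the 4 arrays set apart. The 1 call from F20 to F22 became 2 at an unadjusted p, 0 after quantile normalisation again, 0 with arrays centred on their medians and 3 with array weights, and ranged from 0 to 1 when single arrays were left out. With the replicate number as a block it became 0 (*Scx*, adjusted p = 0.0598), and the block changed the call of no other member. Same-numbered arrays of different time points deviated together no more than others (mean r -0.0167 against 0.00428). The 1 call from F22 to P1 became 2 at an unadjusted p, 2 in 1 fit of 54 arrays and 2 with array weights. The 2 calls from F18 to F20 became 1 without the 4 arrays set apart. The correlations between members and with the cartilage mean, and the pair differences, passed in every alternative run for them, most of which were chosen after seeing the data. The F-test was not run in 1 fit of 54 arrays. The cause of these differences was not tested.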
